A study of Mus musculus with 12 samples.

Results

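Megakaryocytes (MEG) and erythroblasts (ERY) of the mouse fetal liver were compared on 4 arrays each, 8 of the 12 arrays of the series, chosen by their labels. The remaining 4 arrays hold hematopoietic progenitors and entered no difference below, except in one alternative fit. All cells came from mouse embryos at embryonic day 14.5, the strain and genotype are not given in the labels, and no treatment or mutation sets the groups apart. ERY were isolated directly from the liver by immunoselection for Ter119, an antigen of maturing red cells. MEG were grown from liver progenitors in a medium with growth factors, stem cell factor and thrombopoietin among them, and were then immunoselected for CD41, the product of *Itga2b*. Lineage, culture and the selecting antibody change together between the groups, so their shares in a difference cannot be told apart. In bulk samples like these, fewer cells of a type and less RNA per cell cannot be told apart either.

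Megakaryocytes and erythroblasts descend from a common bipotent progenitor and use many of the same transcription factors, GATA1 and TAL1 among them. The megakaryocyte grows large by copying its genome without dividing, fills its cytoplasm with membranes and granules, and releases platelets, which stop bleeding. The erythroblast divides several times while it fills with hemoglobin, then expels its nucleus, and in the fetal liver it does so on islands around a macrophage and amid hepatocytes.

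Each array gave 1 log2 value per probe set, so a difference of 1 is a 2-fold difference in signal. Differences below are MEG minus ERY, and negative values are lower in MEG. Levels are given in the order of replicates 1 to 4, and a level was compared only with levels of the same probe set. A gene was called when it differed more than 2-fold at an adjusted p under 0.05 (limma, Benjamini-Hochberg adjustment over 19937 genes). The background limit was 6.02, the 95th percentile of 1015 olfactory receptor genes, which blood cells are not known to use.

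Of the 19937 genes, 1787 were higher in MEG (8.96%) and 1583 were lower (7.94%), and 16.9% were called in either direction. These shares stand beside each count of list members below, and a count near them is no result about the list. The median gene differed by -0.02 on the log2 scale, and the median fold among called genes was 3.15 for those higher and 3.08 for those lower. All 4 MEG arrays lay above all 4 ERY arrays for 15.2% of all genes and below them for 17.7%. Above the background limit in at least 1 population were 12197 genes, of which 14.4% were higher and 12.7% lower in MEG. Genes above the limit in MEG but not in ERY made up 385 of those higher, and 284 of those lower were above it only in ERY; their folds depend on the background of the array. Differences over 8-fold were found for 279 genes higher and 204 genes lower in MEG.

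**Figure D1:**
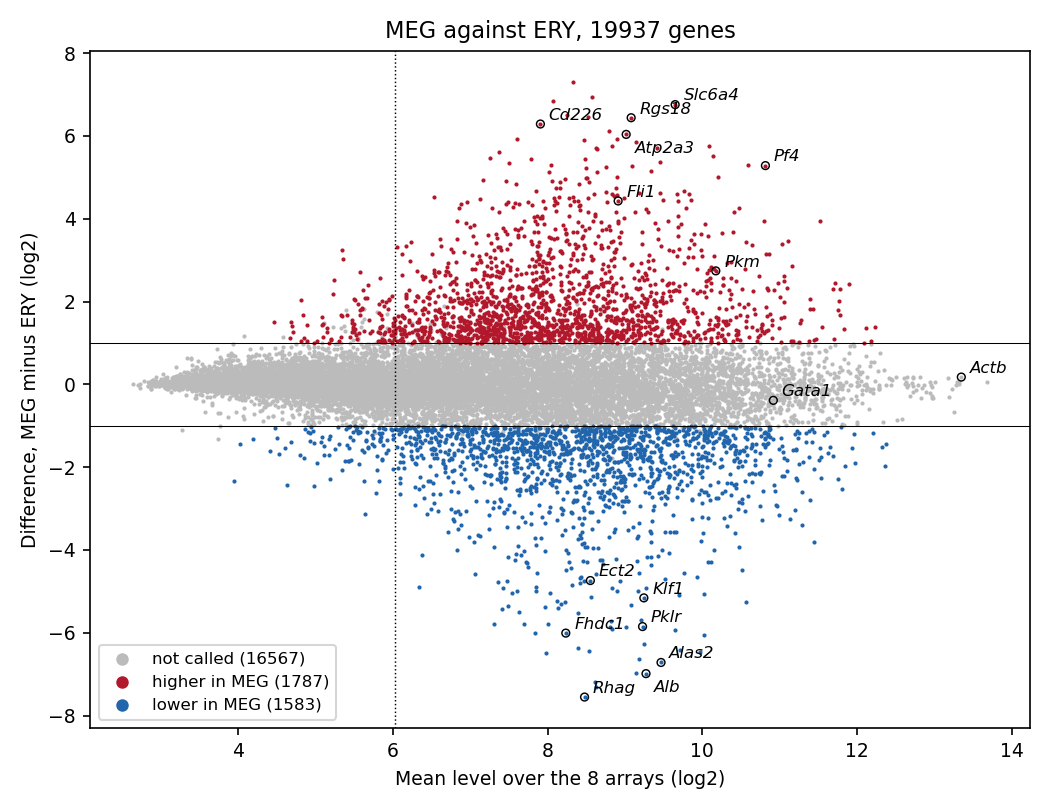
The log2 difference between MEG and ERY (vertical axis) of each of the 19937 genes against its mean level over the 8 arrays (horizontal axis, log2); red and blue points are the 1787 and 1583 genes called, grey points the others, solid lines mark a 2-fold difference and the dotted line the background limit of 6.02. Genes such as *Slc6a4* and *Rhag* lie far from 0, while *Gata1* and *Actb* lie inside the 2-fold lines at high levels.

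The arrays of the 2 populations were not equally uniform. The median SD of a gene over the 4 arrays was 0.33 in MEG and 0.154 in ERY, and 84.6% of the genes above the limit varied more among MEG arrays. MEG array 1 lay farthest from the median of its population for 42.1% of the genes, and MEG array 4 for 32.7%. Over olfactory receptor genes, MEG array 4 had a median of 5.70, while the other MEG arrays lay between 4.28 and 4.55 and the ERY arrays between 4.28 and 4.75. Without MEG replicate 4, the counts were 1941 higher and 1443 lower, and without MEG replicate 1 they were 1889 and 1538.

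The largest differences included, beside granule and red cell membrane proteins, several signalling genes. *Rgs18*, a regulator of G protein signalling in platelets, read 12.24, 12.38, 12.36 and 12.22 on the MEG arrays and 6.0, 6.51, 5.67 and 5.26 on the ERY arrays (log2 difference 6.44, SE 0.23, limma adjusted p = 5.5e-08). Every MEG array was far above every ERY array, and the ERY levels were near the background limit. *Atp2a3*, a calcium pump that refills internal stores, read 12.35, 11.99, 11.91 and 11.89 on the MEG arrays and 6.16, 6.21, 5.79 and 5.83 on the ERY arrays (log2 difference 6.04, SE 0.15, limma adjusted p = 9.5e-09). *Cd226* and *Cd96*, receptors of the immunoglobulin family that bind the same ligand, were both among the 12 largest differences in favour of MEG. *Cd226* read 11.27, 11.06, 10.96 and 10.92 on the MEG arrays and 5.0, 4.88, 4.73 and 4.45 on the ERY arrays, and *Cd96* read 10.23, 11.04, 10.65 and 10.38 on the MEG arrays and 4.35, 4.65, 4.84 and 4.72 on the ERY arrays. Neither gene overlapped between the populations, and both stayed below the limit on every ERY array (log2 differences 6.29 and 5.93, adjusted p = 7.5e-09 and 2.9e-08). In the other direction, *Tspo2*, a membrane protein of erythroid cells that binds cholesterol, read 5.17, 5.56, 5.09 and 5.41 on the MEG arrays and 11.78, 12.03, 11.54 and 11.65 on the ERY arrays (log2 difference -6.44, SE 0.15, limma adjusted p = 7.5e-09). Its MEG levels were all below the limit.

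Platelet adhesion receptors bind collagen, fibrinogen and von Willebrand factor. Of 20 such genes measured, 18 were higher and 1 was lower in MEG, with a median difference of 3.89. Over all genes these shares were 8.96% and 7.94%, and the median was -0.02. The antigen used for selection, *Itga2b*, is among them. Its partner *Itgb3* read 13.23, 12.92, 12.87 and 12.86 on the MEG arrays and 7.70, 8.06, 6.58 and 6.47 on the ERY arrays (log2 difference 5.76, SE 0.34, limma adjusted p = 1.4e-06). The MEG arrays lay within a narrow band, while ERY arrays 1 and 2 were more than 1 log2 unit above ERY arrays 3 and 4. The laminin receptor subunit *Itga6* was 41.0-fold higher in MEG, the collagen receptor subunit *Itga2* 11-fold, the tetraspanin *Cd9* 35.4-fold and the podoplanin receptor *Clec1b* 19.3-fold, and none of the 4 overlapped between the populations. *Pecam1*, an adhesion molecule of platelets and endothelium, read 11.13, 10.40, 10.35 and 10.20 on the MEG arrays and 6.08, 6.47, 6.36 and 6.34 on the ERY arrays (log2 difference 4.21, SE 0.20, limma adjusted p = 3.3e-07). All MEG arrays were at least 3 log2 units above all ERY arrays. The exception was *Cd36*, a scavenger receptor of platelets that other blood cells also carry, which read 7.17, 5.75, 7.0 and 6.67 on the MEG arrays and 9.0, 8.68, 8.61 and 8.40 on the ERY arrays (log2 difference -2.03, SE 0.29, limma adjusted p = 4.7e-04). Its MEG levels were all below its ERY levels.

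Alpha granules store adhesive and clotting proteins. Of 22 genes measured, 16 were higher in MEG and 0 were lower, with a median of 3.25. *Pf4*, a chemokine of these granules, read 13.58, 13.39, 13.32 and 13.54 on the MEG arrays and 7.98, 9.12, 7.64 and 7.96 on the ERY arrays (log2 difference 5.28, SE 0.28, limma adjusted p = 6.5e-07). ERY also had levels above the limit, and all of them were lower than any MEG level. *Thbs1*, an adhesive protein of the granules, differed by 5.30, *Vwf*, the ligand of the platelet glycoprotein Ib complex, by 4.59, and *F13a1*, a subunit of the enzyme that cross-links fibrin, by 4.9. Of the machinery that forms the granules, *Nbeal2* (3.17) and *Vps33b* (1.72) were higher in MEG, while *Vipas39*, whose product binds VPS33B, was not called (0.77, 95% interval 0.32 to 1.23). Of the stored growth factors, *Pdgfb* was 8.18-fold higher in MEG and *Tgfb1* 5.0-fold. *Pdgfa* differed by 0.76 and was not called.

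Dense granules hold serotonin, nucleotides and calcium, and the list of their genes includes those of secretion. Of 23 measured, 13 were higher in MEG and 0 lower, with a median of 1.12. *Slc6a4*, the serotonin carrier of the plasma membrane, read 13.17, 13.10, 13.14 and 12.70 on the MEG arrays and 6.27, 6.67, 6.06 and 6.08 on the ERY arrays (log2 difference 6.76, SE 0.17, limma adjusted p = 9.4e-09). Its MEG levels were uniform apart from a lower level on array 4, and all of them were far above ERY. *Rab27b*, a GTPase needed for granule release, was 61.1-fold higher, *Rab27a* 16.3-fold and *Rab38* 8.68-fold. Most subunits that sort cargo to these granules in every cell differed less. *Hps1*, *Hps3*, *Hps5*, *Hps6*, *Dtnbp1*, *Bloc1s3*, *Bloc1s6* and *Ap3d1* were not called and lay between 0.19 and 0.68, while *Hps4* (2.73) and *Ap3b1* (1.08) were higher. At a threshold of 1.5-fold *Hps1* and *Hps3* were called too. The call of *Ap3b1* was lost without MEG replicates 1 and 3 and with centring on genes above the limit (log2 difference 0.94 in each). In the whole list, all 4 MEG arrays lay above all 4 ERY arrays for 18 of the 23 genes and below them for 1. Of the fusion proteins, the syntaxin *Stx11* (2.28) and its binding protein *Stxbp2* (1.54) were higher in MEG, and the vesicle protein *Vamp8* was not called (-0.80, 95% interval -1.46 to -0.14).

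Platelets are activated by thrombin, ADP, collagen and thromboxane, and signal through G proteins and tyrosine kinases. Of 29 genes for these receptors and their signalling, 26 were higher in MEG and 0 lower, with a median of 3.23. The ATP-gated channel *P2rx1* read 10.78, 11.88, 11.86 and 11.42 on the MEG arrays and 5.90, 6.02, 5.54 and 5.73 on the ERY arrays (log2 difference 5.69, SE 0.24, limma adjusted p = 1.5e-07). All MEG levels were more than 4 log2 units above all ERY levels. The 3 genes of thrombin receptors on the list were all higher, with *F2rl2* (5.71), *F2r* (3.23) and *F2rl3* (3.22), and so were the ADP receptors *P2ry1* (4.45) and *P2ry12* (2.27). The call of *P2ry12* was lost without any 1 of the ERY replicates and without MEG replicate 2 or 3 (limma adjusted p = 0.053 to 0.068), and with low values raised to the background limit (limma adjusted p = 0.092). Below the receptors, the protein kinases C *Prkcq* and *Prkca* were 52.6-fold and 34.9-fold higher, the phospholipase *Plcg2* 24.3-fold, the tyrosine kinases *Btk* and *Syk* 13.3-fold and 13.2-fold, and the G protein subunits *Gnaz* and *Gnaq* 22.9-fold and 15.5-fold. The 3 members not called were *Gnai2* (0.79), *Rap1a* (0.63) and *Apbb1ip* (-0.27). *Rap1b*, the close relative of *Rap1a* that is abundant in platelets, was called (log2 difference 2.02, SE 0.10, limma adjusted p = 4.8e-07).

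Eicosanoids are lipid mediators made from arachidonic acid, and cyclic nucleotides restrain platelets. Of 18 genes for these pathways, 13 were higher in MEG and 0 lower, with a median of 3.43. Genes along the chain from arachidonic acid were higher: *Pla2g4a*, which releases the acid (4.15), the lipoxygenases *Alox12* (5.85) and *Alox5* (4.99), the lipoxygenase-activating protein *Alox5ap* (4.61), a cyclooxygenase, *Ptgs2* (1.35), and the thromboxane synthase *Tbxas1* (3.51). The other cyclooxygenase gene of the list, *Ptgs1*, was without a uniquely named probe set and was not measured. The call of *Ptgs2* was lost without ERY replicate 1, 2 or 4 and without MEG replicate 3 or 4 (limma adjusted p = 0.053 to 0.065), and with low values raised (limma adjusted p = 0.11). *Alox5* read 10.35, 11.22, 11.51 and 10.94 on the MEG arrays and 5.70, 5.63, 6.26 and 6.48 on the ERY arrays. No ERY level of it was within 3 log2 units of a MEG level. Phosphodiesterases, which degrade cyclic nucleotides, were split: *Pde5a*, which acts on cyclic GMP, was 54.0-fold higher and *Pde3a* 10.2-fold, whereas *Pde3b* (0.95), *Pde4b* (0.75), *Pde4d* (0.16), *Pde2a* (0.11) and *Pde7a* (-0.85) were not called. The soluble guanylate cyclase subunits *Gucy1a1* and *Gucy1b1* were 29.9-fold and 19.2-fold higher.

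The cytoskeleton carries granules and membrane into platelets. Of 35 genes of tubulins, actin and myosin, 24 were higher in MEG and 3 lower, with a median of 1.66. *Tubb1*, the tubulin of the platelet's marginal band, read 11.30, 12.46, 12.33 and 12.06 on the MEG arrays and 8.75, 9.69, 9.53 and 9.71 on the ERY arrays (log2 difference 2.62, SE 0.29, limma adjusted p = 1.0e-04). The populations did not overlap, although ERY levels were well above the limit and both array 1s were the lowest of their population. *Tuba8*, an alpha tubulin, read 10.25, 12.16, 11.93 and 11.62 on the MEG arrays and 6.85, 6.78, 6.79 and 7.04 on the ERY arrays (log2 difference 4.63, SE 0.36, limma adjusted p = 8.8e-06). MEG array 1 was again the lowest, and still more than 3 log2 units above every ERY array. The 3 lower members were a myosin and a pair of formins, and at least 1 relative of each was higher. *Myh10*, the heavy chain of nonmuscle myosin IIB, read 5.90, 5.98, 6.43 and 5.96 on the MEG arrays and 9.51, 8.88, 9.33 and 9.33 on the ERY arrays (log2 difference -3.20, SE 0.17, limma adjusted p = 7.0e-07). Its MEG levels were near the background limit, and no array overlapped. *Myh9*, the heavy chain of myosin IIA, differed by 2.63 in the other direction. Among formins, which elongate actin filaments, *Inf2* read 10.57, 9.85, 9.62 and 10.15 on the MEG arrays and 6.71, 7.01, 6.34 and 6.59 on the ERY arrays (log2 difference 3.38, SE 0.22, limma adjusted p = 2.5e-06). *Fhdc1*, another member of that family, read 5.21, 5.30, 5.08 and 5.33 on the MEG arrays and 11.32, 11.48, 11.08 and 11.08 on the ERY arrays (log2 difference -6.01, SE 0.13, limma adjusted p = 6.6e-09). These formins had no overlap between the populations and differed in opposite directions, and *Diaph1* (2.20) and *Diaph3* (-2.32) were split likewise.

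**Figure D2:**
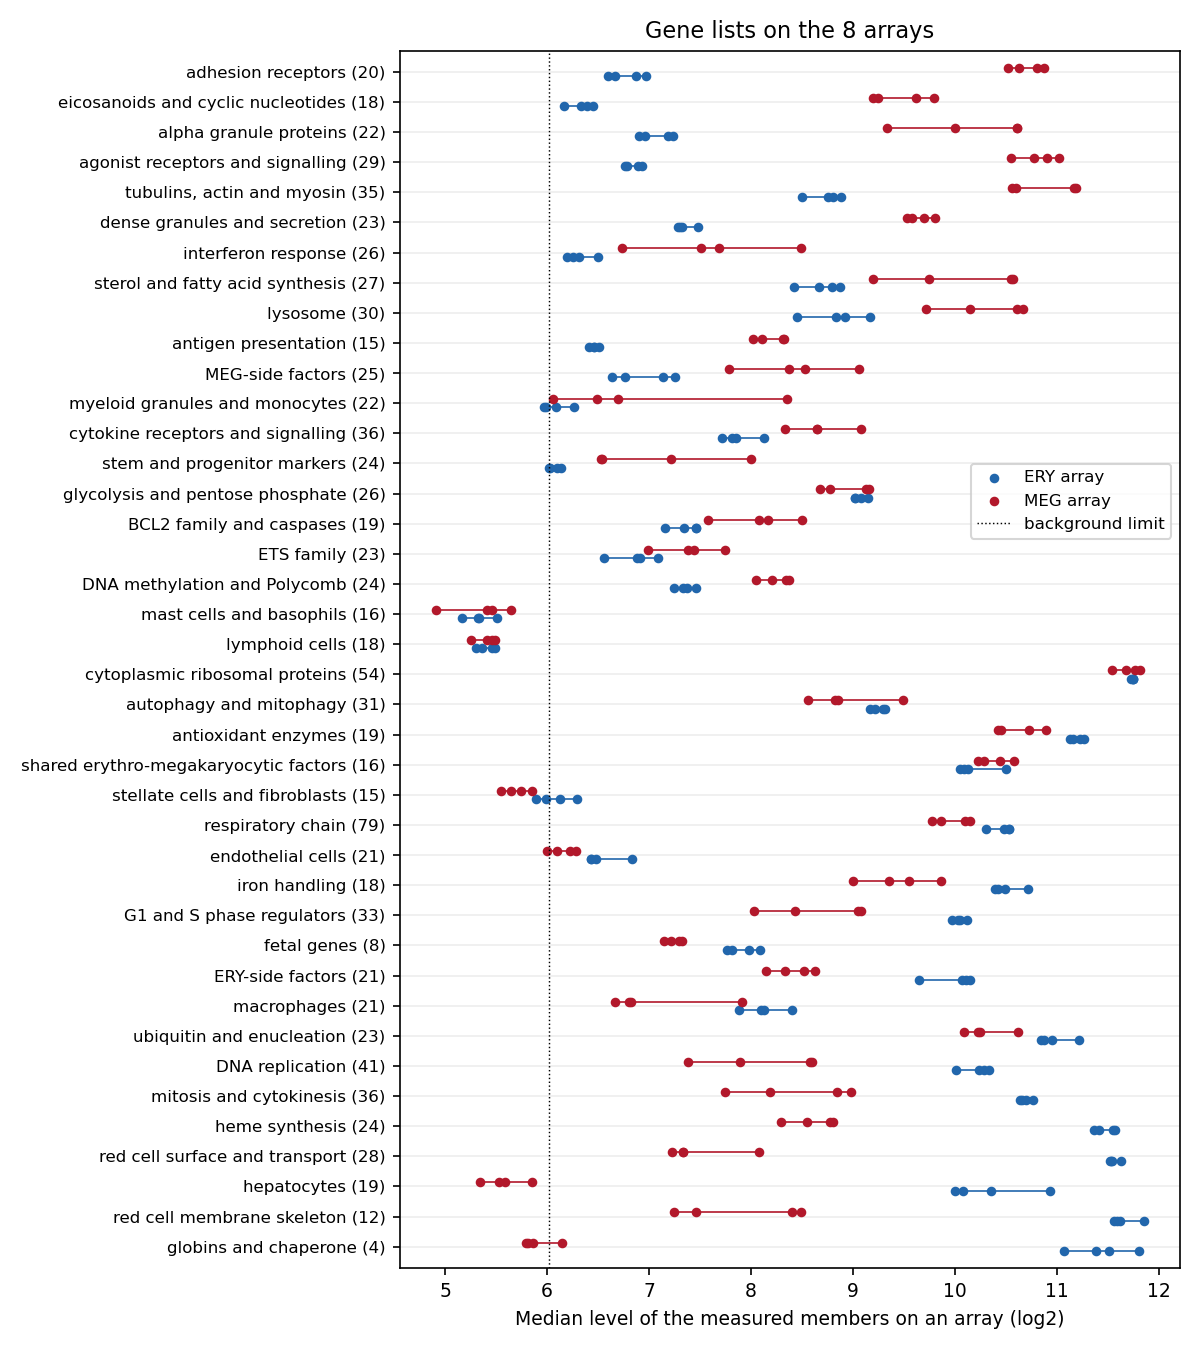
Median level of the measured members of 40 gene lists (horizontal axis, log2) on each MEG array (red points) and each ERY array (blue points), lists being ordered by their median difference with the number of measured members in brackets; lines span the 4 arrays and the dotted line is the background limit. Lists of platelet function stand at the top, with MEG arrays far to the right of ERY arrays, red cell lists and hepatocyte genes at the bottom, and ribosomal protein genes in between.

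In ERY the proteins of the red cell membrane skeleton were high, which is built of spectrin, ankyrin and their linkers. Of 12 genes, 9 were lower in MEG and 1 was higher, with a median of -4.42. *Ank1* read 6.37, 6.11, 5.99 and 5.97 on the MEG arrays and 12.26, 12.51, 12.36 and 12.40 on the ERY arrays (log2 difference -6.27, SE 0.13, limma adjusted p = 6.6e-09). ERY levels spanned less than 0.4 log2 units and did not overlap with those of MEG. *Epb42*, a linker of band 3, differed by -5.86, the spectrin subunit *Sptb* by -4.29 and the actin cap *Tmod1* by -4.56. *Tmod1* read 6.08, 8.32, 8.42 and 7.10 in MEG, a range of more than 2 log2 units, so that its fold depends on the array. The adducins, which join spectrin to actin, went both ways: *Add2* read 5.67, 5.50, 5.53 and 5.33 on the MEG arrays and 10.67, 10.86, 10.66 and 10.78 on the ERY arrays (log2 difference -5.24, SE 0.11, limma adjusted p = 6.6e-09). *Add3* read 9.63, 10.63, 10.66 and 10.07 on the MEG arrays and 8.43, 8.40, 8.15 and 8.22 on the ERY arrays (log2 difference 1.95, SE 0.23, limma adjusted p = 1.3e-04). Each lay on 1 side without overlap, and *Add1* differed by -1.44. The tropomyosins *Tpm3* (0.91) and *Tpm1* (0.61) were not called.

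Red cells carry blood group antigens and channels on their surface. Of 28 genes, 21 were lower in MEG and 1 was higher, with a median of -3.51. *Kel*, a blood group peptidase, read 5.65, 5.48, 6.21 and 6.10 on the MEG arrays and 12.54, 12.60, 12.38 and 12.46 on the ERY arrays (log2 difference -6.64, SE 0.17, limma adjusted p = 9.9e-09). Its partner *Xk* differed by -3.57, the adhesion molecule *Icam4* by -3.64, the mechanically gated channel *Piezo1* by -2.60 and the calcium-activated channel *Kcnn4*, which works beside it, by -3.58. *Cd24a*, a small surface protein of young red cells, read 7.13, 6.63, 7.93 and 6.29 on the MEG arrays and 13.17, 13.05, 13.08 and 12.88 on the ERY arrays (log2 difference -6.05, SE 0.30, limma adjusted p = 4.6e-07). All its ERY levels were more than 4 log2 units above all MEG levels. Glucose carriers differed in kind: *Slc2a1* (-1.97) and *Slc2a4* (-3.87) were lower in MEG, while *Slc2a3*, a carrier of high affinity that is known from platelets, read 12.50, 12.82, 12.84 and 12.92 on the MEG arrays and 8.62, 8.78, 8.85 and 9.05 on the ERY arrays (log2 difference 3.94, SE 0.14, limma adjusted p = 4.6e-08). The only member higher in MEG was *Slc14a1*, a urea carrier and blood group antigen, at 1.0. It lost its call where a replicate left out or another centring brought the difference to between 0.87 and 0.99. *Cd47*, which keeps macrophages from engulfing cells, was not called (-0.23, 95% interval -0.48 to 0.02).

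Hemoglobin is built from globin chains and heme. Of 4 globin genes measured, all of them embryonic or fetal forms or relatives of these, 3 were lower in MEG. *Hbb-y*, an embryonic beta-like chain, read 6.81, 7.44, 6.51 and 5.27 on the MEG arrays and 12.89, 13.01, 12.87 and 12.91 on the ERY arrays (log2 difference -6.41, SE 0.38, limma adjusted p = 1.4e-06). *Hbb-bh1*, another embryonic beta-like chain, differed by -6.0 and *Hba-x*, the embryonic alpha-like chain, by -5.68, and no array of the populations overlapped for any of the 3. *Hbb-bh2* was not called (-0.43). Globin genes resemble each other in sequence, so a probe set named for one may also have read its relatives.

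Heme is made in 8 enzymatic steps that begin and end in the mitochondrion. Of 24 genes for the synthesis, its carriers and iron-sulfur clusters, 18 were lower in MEG and 0 higher, with a median of -2.21. The first step marks the split between isozymes. *Alas2*, the erythroid form of the rate-limiting enzyme, read 6.69, 6.06, 5.89 and 5.79 on the MEG arrays and 12.80, 12.91, 12.81 and 12.79 on the ERY arrays (log2 difference -6.72, SE 0.19, limma adjusted p = 1.6e-08). *Alas1*, the form of all tissues, was not called (0.71, 95% interval 0.12 to 1.31). The later enzymes measured were all lower in MEG, *Alad* by a difference of -3.80, *Uros* by -3.94, *Urod* by -2.80, *Cpox* by -3.28, *Ppox* by -4.08 and *Fech* by -3.60. Mitochondrial carriers were lower as well, with *Slc25a37*, which imports iron, at -5.25 and *Abcb10*, which binds that importer, at -4.55. Genes of iron-sulfur cluster assembly differed less, *Isca1*, *Isca2* and *Nfs1* by -1.14, -1.21 and -1.14. The call of *Nfs1* was lost without MEG replicate 4 (log2 difference -0.97, limma adjusted p = 6.4e-04).

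Iron is taken up with transferrin and stored in ferritin. Of 18 genes, 7 were lower in MEG and 0 higher. *Tfrc*, the transferrin receptor CD71, read 8.15, 10.69, 10.95 and 10.16 on the MEG arrays and 12.70, 12.63, 12.59 and 12.44 on the ERY arrays (log2 difference -2.60, SE 0.52, limma adjusted p = 0.0038). MEG array 1 was more than 2 log2 units below MEG array 4, the next lowest, and all MEG levels were below all ERY levels. *Steap3*, which reduces the iron so released (-3.67), *Slc11a2*, which moves it out of the endosome (-2.89), and *Tfr2* (-3.50) were lower too. The ferritin chains were not called: *Fth1* differed by -0.11 with a 95% interval inside 2-fold (-0.39 to 0.17), and *Ftl1* differed by -0.40 (-1.12 to 0.32). *Slc40a1*, the iron exporter, read 5.75, 6.20, 7.91 and 6.33 on the MEG arrays and 10.35, 10.63, 10.48 and 10.46 on the ERY arrays (log2 difference -3.94, SE 0.39, limma adjusted p = 4.8e-05). It is also a marker of macrophages, as is *Hmox1* (-2.37) of the heme list, and *Trf*, transferrin itself (-2.17), is made by hepatocytes. Macrophage and hepatocyte genes are described below, and their part in these results was not tested.

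Late red cells remove proteins and organelles and expel the nucleus. Of 23 genes of ubiquitin ligases and enucleation, 12 were lower in MEG and 4 higher, with a median of -1.14. *Trim10*, a RING finger protein of erythroid cells, was 83.0-fold lower, *Rnf123* 9.25-fold and *Fbxo7* 6.22-fold. *Xpo7*, a nuclear exporter of erythroblasts, read 9.38, 9.82, 9.72 and 9.14 on the MEG arrays and 12.74, 12.98, 12.72 and 12.61 on the ERY arrays (log2 difference -3.25, SE 0.17, limma adjusted p = 5.2e-07). MEG levels were also well above the limit, and no array overlapped. *Trim58*, a ligase that acts on dynein in erythroblasts, had every MEG level below every ERY level but did not pass the test (log2 difference -1.30, SE 0.45, limma adjusted p = 0.053). It was called without MEG replicate 2 or 3 (limma adjusted p = 0.043 and 0.03), with all 12 arrays in the fit, under both filters on low genes and under both other centrings (limma adjusted p = 0.013 to 0.031). Its MEG levels were 7.51, 9.64, 9.79 and 9.10. The 4 higher members were *Cited2*, a transcriptional coregulator (2.56), the GTPases *Rac2* (1.54) and *Rac1* (1.09), and the intermediate filament *Vim* (1.47).

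Genes that protect against peroxides showed a part of this pattern. Of 19, 7 were lower in MEG and 0 higher. *Gpx1* read 10.28, 10.66, 11 and 10.24 on the MEG arrays and 13.10, 13.16, 12.98 and 13.07 on the ERY arrays (log2 difference -2.53, SE 0.17, limma adjusted p = 3.6e-06), and *Txnrd2*, the mitochondrial thioredoxin reductase, read 6.97, 7.11, 6.94 and 6.79 on the MEG arrays and 10.57, 10.89, 10.53 and 10.59 on the ERY arrays (log2 difference -3.69, SE 0.13, limma adjusted p = 3.8e-08). For both, the lowest ERY array stood more than 1.5 log2 units above the highest MEG array. *Prdx2*, an abundant peroxiredoxin of red cells, differed by -1.51. *Sod1*, *Sod2*, *Gsr* and *Txnrd1*, which differed by -0.11, -0.27, -0.13 and 0.02, were not called. Autophagy genes went both ways, with 6 of 31 higher and 7 lower in MEG, beside 14.4% and 12.7% of the genes above the limit. MEG array 1 was the highest of its population for 24 of the 31 genes, and MEG array 4 the lowest for 23. The list median was 9.49 on MEG array 1, 8.56 to 8.85 on the other MEG arrays and 9.17 to 9.31 on the ERY arrays. The mitophagy receptor *Bnip3l*, needed to clear mitochondria from red cells, was not called (-0.07, 95% interval -0.31 to 0.16). Its relative *Bnip3* read 10.11, 10.90, 11.12 and 11.24 on the MEG arrays and 8.40, 8.60, 8.24 and 8.34 on the ERY arrays (log2 difference 2.45, SE 0.23, limma adjusted p = 3.5e-05). The kinases that start autophagy differed in direction, *Ulk1* by -1.35 and *Ulk2* by 1.91, and so did the Atg4 proteases *Atg4c* (1.19) and *Atg4b* (-1.72), *Atg4d* (-1.87) and *Atg4a* (-1.38). With low values raised, *Ulk1* (limma adjusted p = 0.051) and *Atg4c* (log2 difference 0.90) lost their calls. *Atg4c* also lost its call without MEG replicates 1 and 3 and with array weights, and *Atg4a* with all 12 arrays in the fit (limma adjusted p = 0.084).

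*Gata1* and several other transcription factors that both lineages use differed by less than 2-fold. Of 16 shared factors, 3 were higher in MEG, 2 were lower, and 8 had a 95% interval inside 2-fold, beside 67.0% of all genes and 52.1% of the genes above the limit. Small differences were still frequent among them. All 4 MEG arrays lay below all 4 ERY arrays for 8 of the 16 and above them for 4, beside 17.7% and 15.2% of all genes. *Gata1* read 10.69, 10.94, 10.86 and 10.41 on the MEG arrays and 11.01, 11.14, 11.08 and 11.22 on the ERY arrays, a difference of -0.39 (95% interval -0.69 to -0.08, limma adjusted p = 0.06). *Tal1* read 10.58, 9.99, 9.76 and 9.64 on the MEG arrays and 10.87, 11.02, 10.84 and 10.91 on the ERY arrays, a difference of -0.92 (95% interval -1.35 to -0.48, limma adjusted p = 0.0052). *Gata1* was thus within 2-fold, with MEG levels below ERY levels on every array, whereas the interval of *Tal1* reached beyond 2-fold and it was called without MEG replicate 1 (log2 difference -1.11, limma adjusted p = 1.4e-04). *Ldb1*, *Lyl1*, *Nfe2* and *Zfpm1*, partners or neighbours of these factors, also lay within 2-fold, with intervals of -0.38 to 0.14, -0.76 to 0.13, -0.83 to -0.04 and -0.79 to -0.28. *Lmo2* (-0.85) and *Gfi1b* (-0.84) were not called and not within 2-fold.

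The factors called went both ways. The lists of each side counted below were chosen with earlier results of these data known, so their counts are no test of a split by lineage. *Fli1*, an ETS factor of megakaryocytes, read 10.57, 11.50, 11.33 and 11.11 on the MEG arrays and 6.56, 7.04, 6.44 and 6.74 on the ERY arrays (log2 difference 4.43, SE 0.22, limma adjusted p = 3.5e-07). *Klf1*, the KLF factor of erythroid genes, read 6.56, 6.44, 7.22 and 6.44 on the MEG arrays and 11.74, 11.87, 11.81 and 11.87 on the ERY arrays (log2 difference -5.16, SE 0.18, limma adjusted p = 4.2e-08). For both, every array of one population stood more than 3 log2 units from every array of the other. *Runx1* read 11.25, 11.36, 11.28 and 11.39 on the MEG arrays and 8.53, 8.42, 8.55 and 8.68 on the ERY arrays (log2 difference 2.77, SE 0.10, limma adjusted p = 7.3e-08), with ERY levels well above the limit. *Gata2*, which GATA1 replaces as cells mature, read 8.25, 9.21, 9.89 and 8.88 on the MEG arrays and 7.05, 7.31, 6.80 and 6.99 on the ERY arrays (log2 difference 2.02, SE 0.30, limma adjusted p = 6.5e-04). Its MEG levels were spread over more than 1.5 log2 units, highest on array 3, and did not overlap with ERY. Of 25 factors listed for the megakaryocyte side, 10 were higher and 1 lower in MEG, with *Mef2c* (4.50), *Meis1* (4.49) and *Runx3* (3.74) the largest. Of 21 factors listed for the erythroid side, 10 were lower and 3 higher, with *E2f2* (-4.37), *Sox6* (-4.30), *Klf3* (-2.79), *Ikzf1* (-2.71) and *Bcl11a* (-2.55) next after *Klf1*; *Sox6* and *Bcl11a* repress embryonic globin genes. Of 23 ETS factors, 5 were higher and 1 lower, *Etv6* read 9.54, 10.02, 10.21 and 9.58 on the MEG arrays and 6.24, 5.84, 6.62 and 6.59 on the ERY arrays (log2 difference 3.52, SE 0.22, limma adjusted p = 1.8e-06), and *Erg* lay near the background limit in both populations (0.30). *Etv6* did not overlap, and its ERY levels were near the limit.

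**Figure D3:**
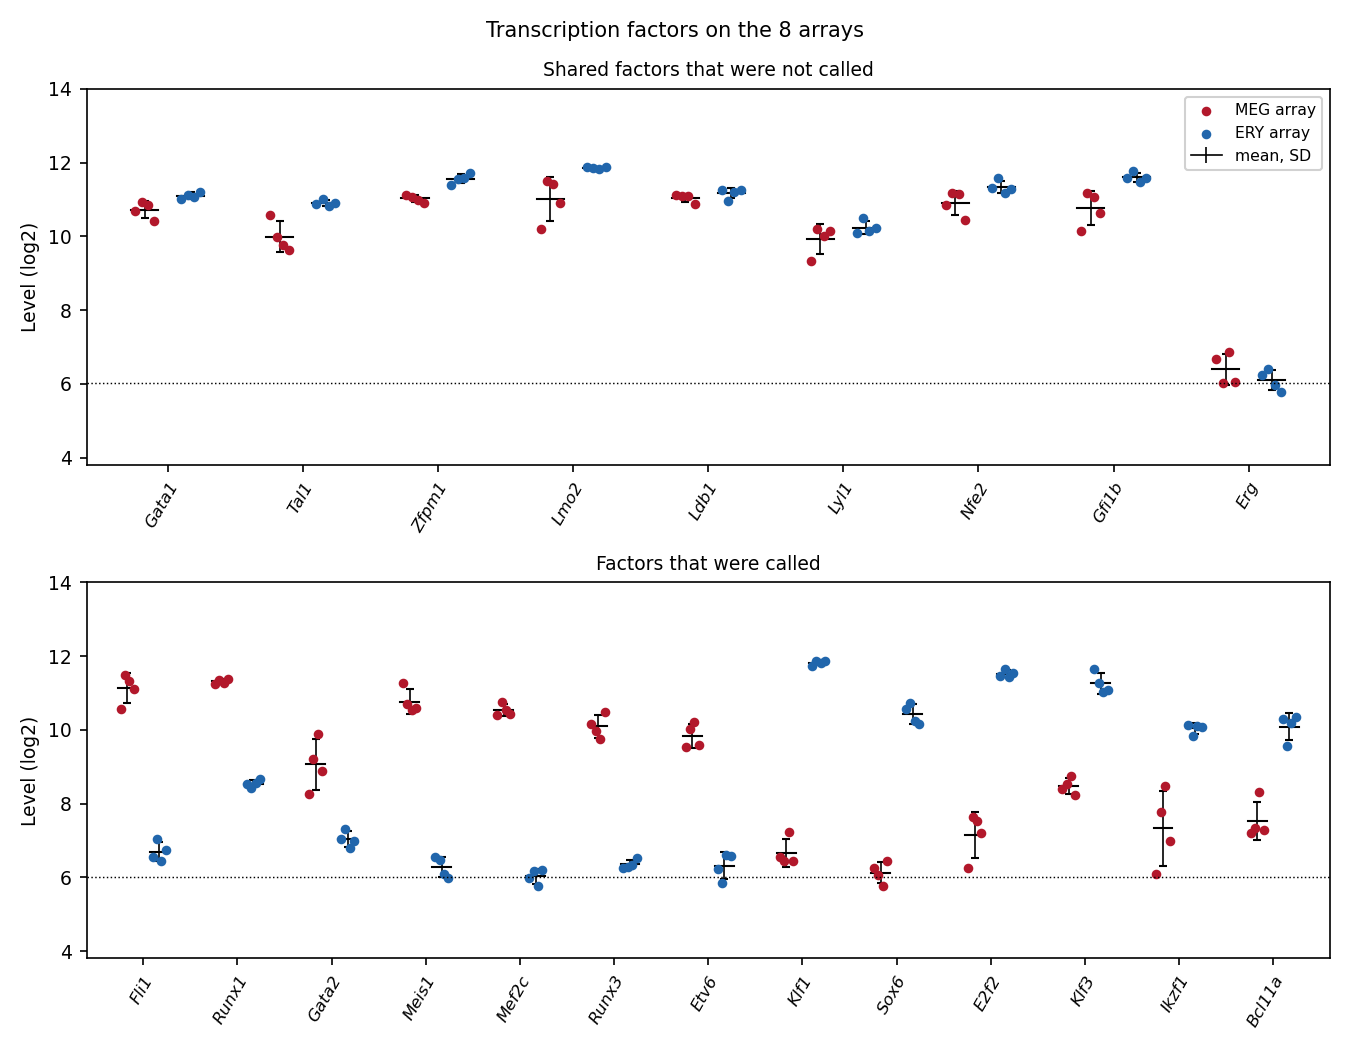
Levels (vertical axis, log2) of transcription factors on the MEG arrays (red points) and ERY arrays (blue points), with the mean and SD of each 4 in black and the background limit dotted. The upper panel holds shared factors that were not called, such as *Gata1* with MEG levels of 10.41 to 10.94 and ERY levels of 11.01 to 11.22; the lower panel holds called factors, from *Fli1* to *Bcl11a*.

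The promoters of called genes were searched for short motifs of these factors. A promoter was taken as the 250 bases before and the 50 bases after a start, in the mouse build GRCm38.p6 of RefSeq, and the motifs were AGATAA or TGATAA for GATA, CCGGAAGT or AGGAAGT for ETS and CCNCNCCC for KLF, each on either strand. Motifs of RUNX, NF-E2 and E-box factors were searched too and are not given here. A match is a run of letters, not a site shown to be bound. Of the promoters of genes higher in MEG, 11.6% held a GATA match, of those lower 12.5% and of all genes tested 14.7%; over all promoters of the table the share was 18.6%. Among genes that differed over 8-fold, it was 16.5% for those higher and 21.5% for those lower. GATA and KLF matches together were in 6.77% of the promoters of genes over 8-fold higher and 11.8% of those over 8-fold lower, in 5.72% and 6.27% of those of all genes higher and lower, and in 5.52% of all. KLF matches, with or without a GATA match, were in 70.6% of the promoters of genes higher, 67.4% of those lower and 59.6% of all. Among genes over 8-fold higher and lower the shares with KLF matches were 64.2% and 69.3%. ETS matches were in 13.7% and 13% of the promoters of genes higher and lower, and in 10.6% and 7.89% of the promoters of genes over 8-fold higher and lower, beside 13.7% of all. A gene may have several promoters, and these shares were not tested.

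Of 7 genes whose promoters were read singly, the 4 with a GATA match are given to show what such letters look like, in lower case with each match in capitals, on the strand of the gene. The other 3, *Itga2b*, *Gp9* and *Slc6a4*, all higher in MEG, had KLF letters but no GATA or ETS match. *Rhag*, a blood group protein of the red cell surface, differed by -7.55. *Alas2* (chrX:150547167-150547466) has GATA letters at -86 from the start and a cluster of overlapping KLF letters after it:
*Alas2*: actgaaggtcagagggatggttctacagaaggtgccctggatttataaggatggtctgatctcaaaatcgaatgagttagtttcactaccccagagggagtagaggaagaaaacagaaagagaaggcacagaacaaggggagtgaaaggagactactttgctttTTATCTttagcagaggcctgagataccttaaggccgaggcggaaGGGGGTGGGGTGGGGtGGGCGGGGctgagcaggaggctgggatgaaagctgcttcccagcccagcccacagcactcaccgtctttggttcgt
*Rhag* (chr17:40810899-40811198) has GATA letters at -31:
*Rhag*: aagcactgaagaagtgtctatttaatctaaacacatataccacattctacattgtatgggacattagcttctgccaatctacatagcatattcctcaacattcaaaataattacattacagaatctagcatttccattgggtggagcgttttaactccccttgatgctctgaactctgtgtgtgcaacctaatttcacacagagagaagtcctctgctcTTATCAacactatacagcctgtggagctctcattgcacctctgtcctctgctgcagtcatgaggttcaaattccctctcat
*Klf1* (chr8:84901732-84902031) has them at -80:
*Klf1*: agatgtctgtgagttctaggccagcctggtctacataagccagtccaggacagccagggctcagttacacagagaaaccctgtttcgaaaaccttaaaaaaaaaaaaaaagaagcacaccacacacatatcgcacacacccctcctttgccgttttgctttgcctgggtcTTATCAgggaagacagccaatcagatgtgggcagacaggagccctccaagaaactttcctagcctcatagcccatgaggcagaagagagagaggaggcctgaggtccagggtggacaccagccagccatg
*Pf4* (chr5:90772185-90772484), higher in MEG, has ETS letters at -10 and GATA letters at 36:
*Pf4*: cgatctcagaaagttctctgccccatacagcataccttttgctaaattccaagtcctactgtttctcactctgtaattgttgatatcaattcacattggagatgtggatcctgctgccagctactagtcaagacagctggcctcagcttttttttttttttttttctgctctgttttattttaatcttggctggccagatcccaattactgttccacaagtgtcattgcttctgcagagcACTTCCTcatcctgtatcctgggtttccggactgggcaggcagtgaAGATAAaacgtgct
All 4 lie on the plus strand. The GATA letters read TTATCT in *Alas2* and TTATCA in *Rhag* and *Klf1*, which is the motif on the other strand, and AGATAA in *Pf4*.

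Genes of DNA replication were almost all lower in MEG: 40 of 41 were called lower and 0 higher, with a median of -1.91, and the remaining one, *Pold2*, differed by -0.57. *Orc1*, which marks origins, read 5.60, 7.03, 7.38 and 5.93 on the MEG arrays and 9.67, 9.33, 9.59 and 9.65 on the ERY arrays (log2 difference -3.08, SE 0.36, limma adjusted p = 1.4e-04). *Mcm7*, of the helicase, read 7.83, 9.57, 9.70 and 9.04 on the MEG arrays and 11.69, 11.54, 11.74 and 11.86 on the ERY arrays (log2 difference -2.67, SE 0.36, limma adjusted p = 3.3e-04). MEG array 1 was the lowest of its population for both, and for 37 of the 41 genes. The median of the list was 7.38 on MEG array 1 and between 7.90 and 8.60 on the other MEG arrays, beside 10.01 to 10.34 on the ERY arrays. Of 36 genes of mitosis and cytokinesis, 33 were lower and 1 was higher, with a median of -2.0. *Ect2*, which starts the cleavage furrow, had the largest difference: it read 5.50, 6.04, 7.67 and 5.53 on the MEG arrays and 11.11, 10.91, 10.87 and 10.81 on the ERY arrays (log2 difference -4.74, SE 0.43, limma adjusted p = 2.4e-05). MEG arrays 1, 2 and 4 were at or near the background limit, and array 3 was higher. The member higher in MEG was *Cep55*, which acts at the last cut between daughter cells, with levels of 6.39, 7.28, 7.28 and 6.86 on the MEG arrays and 5.43, 5.25, 5.28 and 5.36 on the ERY arrays (log2 difference 1.62, SE 0.20, limma adjusted p = 1.7e-04). Its ERY levels were all under the background limit, and its call was lost when low values were raised to that limit (log2 difference 0.93, limma adjusted p = 0.019).

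Regulators of the entry into S phase differed by family. Of 33, 13 were lower and 5 higher in MEG. *Ccne1*, a cyclin of the G1 to S transition, read 6.80, 8.29, 8.34 and 7.51 on the MEG arrays and 11.23, 11.05, 11.40 and 11.50 on the ERY arrays (log2 difference -3.56, SE 0.32, limma adjusted p = 2.3e-05). *Ccnd2*, a D cyclin, read 9.43, 11.19, 10.94 and 10.55 on the MEG arrays and 7.76, 7.52, 7.91 and 8.02 on the ERY arrays (log2 difference 2.73, SE 0.34, limma adjusted p = 2.0e-04). Neither overlapped, MEG array 1 was the lowest of its population for both, and *Ccnd3*, the D cyclin known from both lineages, was not called (-0.10, 95% interval -0.43 to 0.23). *Cdk6*, a kinase of D cyclins, was 6.76-fold higher in MEG, and *Cdk2*, a kinase of E cyclins, was 3.51-fold lower. *Mycn* read 8.88, 9.54, 9.33 and 9.12 on the MEG arrays and 5.58, 5.98, 5.79 and 5.91 on the ERY arrays (log2 difference 3.40, SE 0.16, limma adjusted p = 3.3e-07), whereas *Myc* was not called (0.36, 95% interval -0.57 to 1.30). The ERY levels of *Mycn* were below the limit. *Cdkn2c*, an inhibitor of CDK4 and CDK6, was 23.4-fold lower in MEG.

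**Figure D4:**
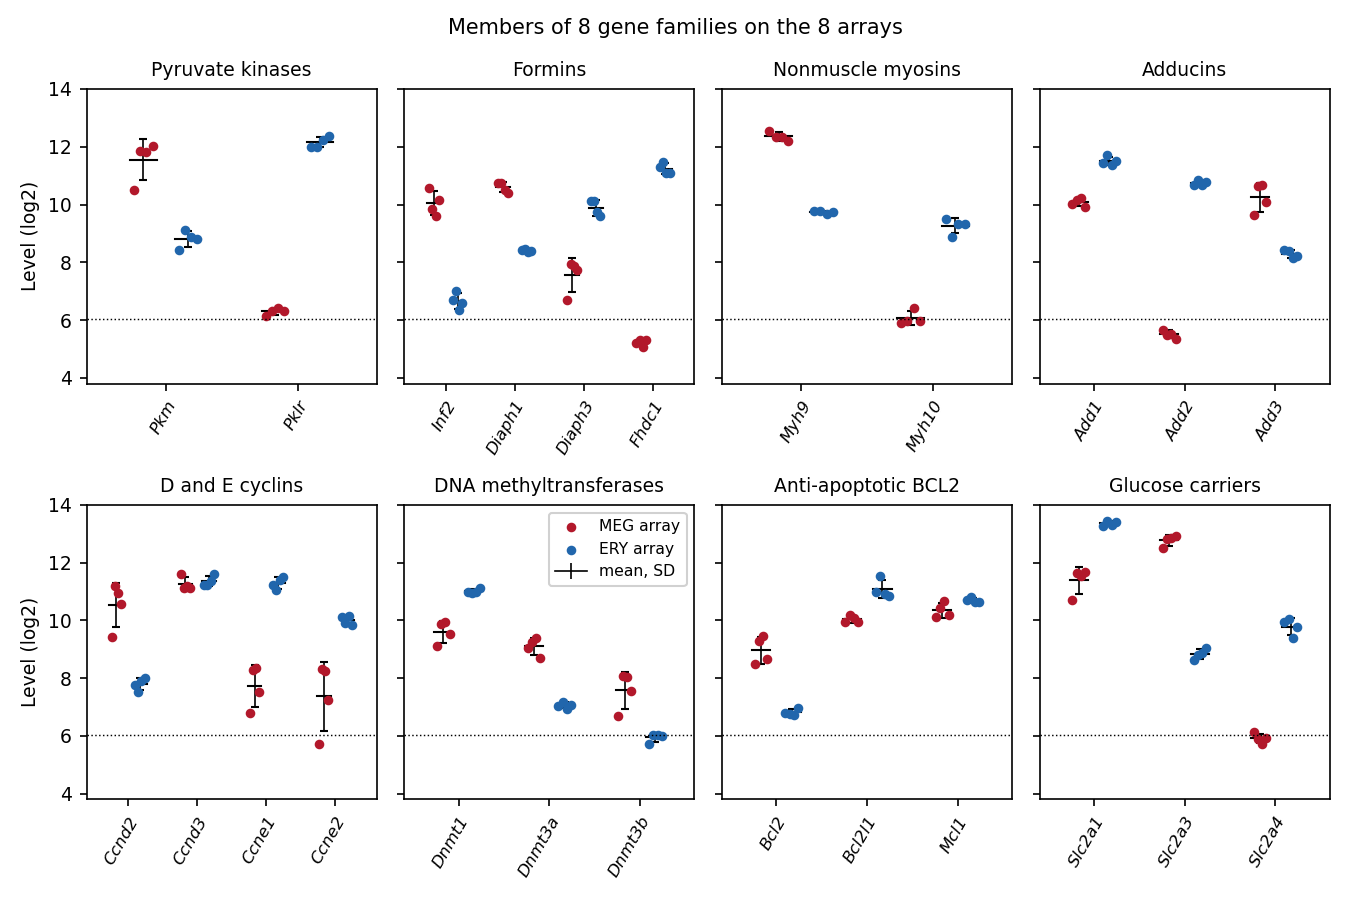
Levels (vertical axis, log2) of members of 8 gene families on the MEG arrays (red points) and ERY arrays (blue points), with the mean and SD of each 4 in black and the background limit dotted. In each family at least 1 member was called higher and another lower in MEG, such as *Pkm* and *Pklr*. The call of *Bcl2l1* was lost without ERY replicate 2 and in some other alternatives. Levels of different genes are not comparable with each other.

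Glycolysis feeds both red cells and platelets. Of 26 genes, 10 were higher and 2 lower in MEG, with a median of 0.51. The 2 lower are those with red cell forms: *Pklr*, the pyruvate kinase of liver and red cells, read 6.15, 6.31, 6.43 and 6.31 on the MEG arrays and 12.01, 12.01, 12.24 and 12.36 on the ERY arrays (log2 difference -5.85, SE 0.13, limma adjusted p = 6.6e-09), and *Bpgm*, which makes the bisphosphoglycerate that loosens oxygen from hemoglobin, read 6.44, 6.67, 6.82 and 6.15 on the MEG arrays and 10.46, 10.79, 10.22 and 10.34 on the ERY arrays (log2 difference -3.93, SE 0.18, limma adjusted p = 2.4e-07). Neither gene overlapped. *Pkm*, the pyruvate kinase of most other cells, read 10.49, 11.87, 11.80 and 12.02 on the MEG arrays and 8.41, 9.10, 8.88 and 8.82 on the ERY arrays (log2 difference 2.74, SE 0.32, limma adjusted p = 1.4e-04). Its lowest MEG level, on array 1, was still above every ERY level. *Pfkp* (3.60) and *Aldoc* (3.49), isozymes of phosphofructokinase and aldolase, were higher as well, while *Pfkl* (-0.29) and *Pfkm* (-0.47) were not called. *Pfkl* read 7.75, 10.64, 10.66 and 10.61 on the MEG arrays and 10.09, 10.06, 10.27 and 10.39 on the ERY arrays, so MEG array 1 set the sign of its difference, and without MEG replicate 1 it was 0.43, adjusted p = 0.022 (limma), still under 2-fold. MEG array 1 had the lowest level of 18 of the 26 genes.

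The respiratory chain differed less. Of 79 genes of the complexes, 7 were lower and 1 was higher, and the median was -0.37. Over all genes, 7.94% were lower and 8.96% higher. All 4 MEG arrays lay below all 4 ERY arrays for 39 of the 79 and above them for 5, beside 17.7% and 15.2% of all genes. At a threshold of 1.5-fold, 26 of the 79 were lower and 3 higher, beside 2538 and 2649 of the 19937 genes. The count of 7 depended on the arrays, with 3 without MEG replicate 1, 3 without MEG replicate 4, 4 without ERY replicate 2 and 12 without MEG replicate 2. Of 54 cytoplasmic ribosomal protein genes, 0 were called and 52 had an interval inside 2-fold. At a threshold of 1.5-fold, 1 of them was lower. Sterol and fatty acid synthesis had 12 of 27 genes higher and 0 lower, with a median of 0.96. *Msmo1*, an enzyme late in cholesterol synthesis, read 10.78, 11.22, 11.24 and 10.73 on the MEG arrays and 8.67, 8.42, 8.56 and 8.56 on the ERY arrays (log2 difference 2.43, SE 0.15, limma adjusted p = 1.8e-06). *Cyp51* (2.34) and *Hmgcs1* (2.26) followed. MEG array 1 was the lowest of its population for 23 of the 27 genes, with a list median of 9.20, beside 9.74 to 10.57 on the other MEG arrays and 8.42 to 8.87 on the ERY arrays. Of 30 lysosome genes, 14 were higher and 0 lower, with a median of 0.88. *Gpnmb*, a glycoprotein of lysosomes and melanosomes, read 12.42, 10.74, 12.18 and 12.09 on the MEG arrays and 5.48, 5.76, 5.84 and 5.89 on the ERY arrays (log2 difference 6.12, SE 0.33, limma adjusted p = 6.7e-07). Its MEG array 2 was more than 1 log2 unit below the others. That array had the lowest level of 17 of the 30 genes, and the count of members higher fell to 8 without MEG replicates 1 and 3.

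Cytokine receptors and their signalling had 13 of 36 genes higher and 2 lower in MEG. *Epor*, the receptor of erythropoietin, was lower and read 9.29, 9.37, 9.19 and 8.94 on the MEG arrays and 11.02, 11.26, 10.95 and 11.15 on the ERY arrays (log2 difference -1.90, SE 0.13, limma adjusted p = 3.7e-06). MEG levels were well above the limit, but without overlap. *Il6st*, the shared receptor of the interleukin 6 family, differed by 2.41, the chemokine receptor *Cxcr4* by 2.78 and the adaptor *Sh2b3*, which restrains cytokine signalling, by 1.86. *Jak2*, a kinase of cytokine receptors, was within 2-fold (0.03, 95% interval -0.32 to 0.39), and *Stat5b* was not called (0.56, 95% interval 0.01 to 1.11). Of 19 genes of the BCL2 family and caspases, 4 were higher and 3 lower, beside 14.4% and 12.7% of the genes above the limit. *Bcl2* read 8.50, 9.28, 9.46 and 8.65 on the MEG arrays and 6.78, 6.76, 6.73 and 6.96 on the ERY arrays (log2 difference 2.16, SE 0.21, limma adjusted p = 4.6e-05). *Bcl2l1*, the antiapoptotic gene of red cells and platelets, read 9.93, 10.19, 10.06 and 9.95 on the MEG arrays and 10.98, 11.54, 10.92 and 10.86 on the ERY arrays (log2 difference -1.04, SE 0.16, limma adjusted p = 9.2e-04). Neither overlapped. The call of *Bcl2l1* was lost without ERY replicate 2 (log2 difference -0.88, limma adjusted p = 9.7e-04). It was also lost under quantile normalization (log2 difference -0.94), with centring on ribosomal protein genes (-0.997) and with array weights (-0.82).

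Interferon response genes were higher in MEG in 12 of 26 cases and lower in 1, with a median of 1.08. *Ifitm3*, a membrane protein against viruses, read 11.76, 12.26, 12.26 and 12.13 on the MEG arrays and 7.17, 8.05, 7.18 and 7.31 on the ERY arrays (log2 difference 4.68, SE 0.21, limma adjusted p = 2.5e-07), and *Ifitm1* and *Ifitm2*, its neighbours in the family, were 12.4-fold and 4.34-fold higher. MEG levels of *Ifitm3* were uniform. Those of the list as a whole were not: its median was 6.74 on MEG array 1, 7.69, 8.49 and 7.51 on arrays 2, 3 and 4, and 6.20 to 6.50 on the ERY arrays. The member lower in MEG was *Rsad2*, an antiviral enzyme (log2 difference -1.54, SE 0.35, limma adjusted p = 0.0077). Of 15 genes of antigen presentation 5 were higher and 0 lower. These were *Tap1* (2.28), *Tap2* (1.47), the immunoproteasome subunits *Psmb9* (1.60) and *Psmb8* (1.48) and the cathepsin *Ctss* (2.19), while class II genes such as *H2-Ab1* (-0.04) differed little.

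Among 24 genes of DNA methylation and Polycomb, 7 were higher and 2 lower in MEG, beside 14.4% and 12.7% of the genes above the limit. *Dnmt3a*, which sets new methylation, read 9.04, 9.25, 9.39 and 8.70 on the MEG arrays and 7.05, 7.18, 6.92 and 7.06 on the ERY arrays (log2 difference 2.04, SE 0.16, limma adjusted p = 8.6e-06), and *Dnmt1*, which copies methylation after replication, read 9.12, 9.86, 9.96 and 9.51 on the MEG arrays and 10.99, 10.94, 10.99 and 11.11 on the ERY arrays (log2 difference -1.40, SE 0.18, limma adjusted p = 2.7e-04). The populations overlapped for neither. *Dnmt3b* (1.64), *Tet1* (2.09) and *Tet2* (2.0), which oxidizes methylated bases as *Tet1* does, were higher too. Of 8 genes of fetal growth, 3 were lower. *Igf2*, a fetal growth factor that hepatocytes also make, read 6.07, 6.0, 5.59 and 5.92 on the MEG arrays and 10.71, 10.72, 10.83 and 10.74 on the ERY arrays (log2 difference -4.86, SE 0.13, limma adjusted p = 1.0e-08). *Igf2bp1*, an RNA-binding protein of fetal cells, differed by -3.05 and its relative *Igf2bp3* by 0.95, the latter without a call.

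The labels name 1 cell type for each population, and markers of other cells were compared with them. Of 19 hepatocyte genes, 18 were lower in MEG and 0 higher, with a median of -4.42. On the ERY arrays the list median was 10.94, 10.36, 10 and 10.08, and 17 of the 19 genes were highest on ERY array 1, whereas on the MEG arrays it was between 5.34 and 5.85, under the background limit. *Ttr*, a plasma carrier made by the liver, read 5.99, 6.26, 6.18 and 6.92 on the MEG arrays and 11.13, 10.84, 10.78 and 10.91 on the ERY arrays, and *Hnf4a*, a hepatocyte transcription factor, read 6.50, 6.23, 6.07 and 6.37 on the MEG arrays and 8.79, 8.41, 8.36 and 8.51 on the ERY arrays. Both were above the limit on every ERY array. *Cps1*, an enzyme of the urea cycle, read 8.99, 7.09, 6.63 and 6.33 on the ERY arrays and was highest on array 1. The part of such RNA in other genes higher in ERY was not tested.

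Of 21 macrophage genes, 10 were lower in MEG and 2 were higher, with a median of -1.01. *Vcam1*, an adhesion molecule of island macrophages, read 5.69, 5.66, 6.15 and 6.05 on the MEG arrays and 9.25, 9.44, 9.37 and 9.33 on the ERY arrays (log2 difference -3.46, SE 0.14, limma adjusted p = 1.1e-07), and *Cd5l*, a secreted protein of tissue macrophages, read 6.96, 6.23, 7.01 and 6.82 on the MEG arrays and 8.16, 9.18, 8.70 and 8.92 on the ERY arrays (log2 difference -1.99, SE 0.25, limma adjusted p = 2.0e-04). ERY arrays were above MEG arrays for both. All 21 genes were lowest on ERY array 1 among the ERY arrays, and 19 were highest on ERY array 2, with list medians of 7.89, 8.41, 8.12 and 8.10. Among the MEG arrays, 17 of the 21 were highest on array 3, with list medians of 6.80, 6.66, 7.91 and 6.82. The defining markers *Adgre1* (-0.52), *Csf1r* (0.13) and *Cd163* (-0.01) were not called. The 2 higher, *Siglec1* (1.18) and *Cd68* (1.16), lost their calls in 9 and 12 of the alternatives that kept the threshold, and the number lower was 6 without ERY replicate 2 or 4.

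Myeloid granule genes had 4 of 22 members higher and 0 lower in MEG. *Lyz2* read 12.36, 11.73, 12.76 and 12.48 on the MEG arrays and 8.39, 9.38, 8.97 and 9.10 on the ERY arrays (log2 difference 3.38, SE 0.26, limma adjusted p = 8.2e-06), without overlap. The list was uneven among MEG arrays, with 21 of its 22 genes highest on array 3 and medians of 6.06, 6.70, 8.35 and 6.49, beside 5.97 to 6.26 on the ERY arrays. *Mpo*, the peroxidase of neutrophils, read 5.63, 8.01, 10.87 and 6.24 on the MEG arrays and 8.16, 6.91, 7.64 and 7.73 on the ERY arrays and was not called (0.08, adjusted p = 0.97). Only its MEG array 3 stood above all ERY arrays. The number of members higher was 8 without MEG replicate 1, and 2 with low values raised or at an FDR of 1%. Of 16 mast cell genes, 1 was higher, *Gata2*, which is shared with the blood lineages. *Cpa3*, a mast cell protease, read 4.96, 7.71, 9.74 and 6.05 in MEG, highest on array 3 again, and was not called. Of 18 lymphoid genes, 1 was higher, *Il7r* (2.36), and the list medians lay between 5.25 and 5.49 on all 8 arrays. Among 21 endothelial genes 3 were higher and 2 lower, beside 8.96% and 7.94% of all genes and 14.4% and 12.7% of those above the limit. *Cdh5*, the cadherin of endothelium, read 5.03, 5.34, 5.49 and 5.26 on the MEG arrays and 8.29, 9.20, 9.01 and 9.14 on the ERY arrays (log2 difference -3.63, SE 0.21, limma adjusted p = 1.1e-06), whereas *Kdr* (0.04) and *Flt1* (0.01) were not called. Of 15 genes of stellate cells and fibroblasts, 2 were lower, *Dlk1* (-2.61), which fetal hepatocytes also express, and *Dcn* (-1.88), beside 7.94% of all genes. Stem and progenitor markers were higher in 10 of 24 cases and lower in 2. Those higher include *Itga2b*, the antigen on which MEG were selected, and *Meis1*, *Gata2* and *Mycn*, which are also described above. *Cd34* read 10.34, 10.91, 11.05 and 12.04 on the MEG arrays and 6.46, 6.65, 6.27 and 6.35 on the ERY arrays (log2 difference 4.65, SE 0.31, limma adjusted p = 2.7e-06), while *Kit* (0.46) and *Hlf* (-0.44) were not called. The levels of *Kit* in MEG were 6.23, 7.12, 8.30 and 6.57, again highest on array 3.

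**Figure D5:**
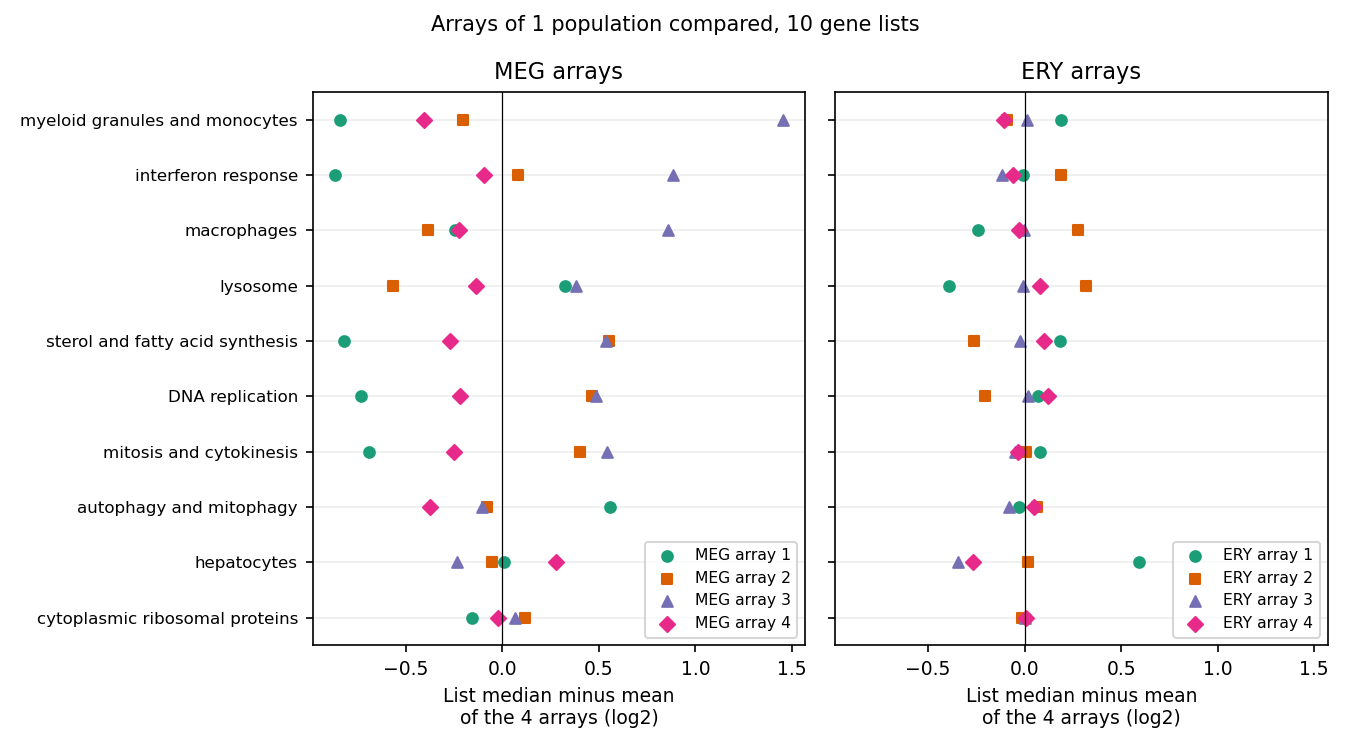
Median level of 10 gene lists on each array minus the mean of the medians of the 4 arrays of that population (horizontal axis, log2), for MEG (left) and ERY (right); each symbol is 1 array. MEG array 3 stands to the right for myeloid, interferon and macrophage genes, MEG array 1 to the left for replication, mitosis and sterol genes, and ERY array 1 to the right for hepatocyte genes.

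Single genes followed the arrays in other ways. *Ak4*, a mitochondrial adenylate kinase, read 6.57, 10.57, 10.53 and 10.67 on the MEG arrays and 8.14, 7.74, 7.71 and 7.68 on the ERY arrays. MEG array 1 was far below the other MEG arrays and below every ERY array, and the gene was called only in the 3 alternatives that removed or weighted down that array, such as without MEG replicate 1 (log2 difference 2.78, limma adjusted p = 1.2e-06). *Tnfsf14*, a ligand of the tumor necrosis factor family, read 6.85, 11.29, 11.17 and 9.59 on the MEG arrays and 5.70, 5.94, 6.18 and 6.33 on the ERY arrays and was called (log2 difference 3.69, SE 0.84, limma adjusted p = 0.0082). On array 1 it was more than 2 log2 units below the next MEG array. Among the ERY arrays, immediate early genes split the arrays into 2 pairs. *Fos* read 5.83, 6.18, 8.34 and 8.70, *Fosb* 6.11, 6.62, 9.0 and 9.10 and *Jun* 6.97, 7.51, 9.47 and 9.50, and the chaperone *Hspa1a* read 8.70, 8.65, 10.71 and 10.80. All 4 were higher on ERY arrays 3 and 4 than on arrays 1 and 2. *Fos*, *Fosb* and *Hspa1a* were not called between the populations. *Jun* was higher in MEG (log2 difference 2.03, SE 0.55, limma adjusted p = 0.02), but not without ERY replicate 2 (log2 difference 1.74, limma adjusted p = 0.059). Its call was also lost without MEG replicates 1 and 3 (limma adjusted p = 0.061) and with low values raised (limma adjusted p = 0.075).

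A 95% interval within 2-fold was found for 13362 genes, 5706 of them above the limit in both populations. The most abundant of these included *Actb*, cytoplasmic actin, which read 13.33, 13.50, 13.49 and 13.42 on the MEG arrays and 13.25, 13.27, 13.23 and 13.28 on the ERY arrays, and *Eef1a1*, an elongation factor of translation, which read 13.31, 13.42, 13.35 and 13.18 on the MEG arrays and 13.35, 13.23, 13.31 and 13.35 on the ERY arrays. Both 95% intervals lay well inside 2-fold (-0.05 to 0.40 and -0.23 to 0.23). *Slc25a5*, a mitochondrial ADP/ATP carrier, and *Atpif1*, an inhibitor of ATP synthase that red cells need to make heme, differed by -0.02 and -0.32, with intervals of -0.35 to 0.31 and -0.54 to -0.11. In the lists, ribosomal proteins had the largest share within 2-fold, 52 of 54, and adhesion receptors had 1 of 20.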

How the data were processed

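RNA of 3 fetal liver populations, with 4 biological replicates each, was hybridised to 12 GeneChip Mouse Gene ST arrays, and the 8 of MEG and ERY were compared. The authors processed the arrays by RMA and deposited log2 values per probe set; its version and settings were not given in the sources used here. RMA equalizes the distributions of arrays, so a global change in RNA per cell is not visible, and precision rests on the number of arrays.

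Of 34760 probe sets, 21640 carry 1 gene symbol in the platform's annotation and were used, 1321 carry several and 11799 are not listed. For the 954 of 19937 genes with several probe sets, the one brightest on average across the 12 arrays was kept, and 19855 genes matched a RefSeq table. Differences came from limma 3.58.1 under R 4.3.3 (lmFit and eBayes, 8 arrays, no filter on low values), with Benjamini-Hochberg adjustment over all genes and thresholds of 2-fold and an FDR of 5%. Every adjusted p printed for a gene comes from that fit or, where an alternative is named, from the limma fit of that alternative. In a simulation over 19937 genes, 50 genes above the background limit were changed by each fold and most others not at all. Of 2-fold changes, which lie on the threshold, 42% passed the FDR and 20% were called. Of 3-fold changes 86% were called and of 4-fold changes 96%, with 5 false calls. Far fewer genes differed there than the 16.9% called in the data, which makes the adjustment stricter. These rates are therefore not the sensitivity of the comparison itself. Replicates were separate biological samples by the study's methods; how many embryos each pooled is not given.

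The naming rule takes the 12 genes with the largest difference each way among called genes without overlap and above the background limit in the higher population, the 3 called members with the largest difference each way and the 2 highest uncalled members of each of 40 lists, regulators the study is about, the 10 most variable genes of each population and the 10 most abundant genes within 2-fold (263 in all, not all of which are printed). A further 134 genes in the text were chosen after their values were seen. The lists hold 1076 entries, 1001 of them measured: *Itga2b* and other adhesion receptors; alpha granules; dense granules; agonist signalling; eicosanoids; cytoskeleton; shared, ETS, MEG-side and ERY-side factors; globins; red cell membrane and surface; heme; iron; ubiquitin and enucleation; antioxidants; autophagy; replication; mitosis; G1 and S phase; cytokine signalling; BCL2 family; sterols; lysosome; glycolysis; respiratory chain; ribosomal proteins; interferon; antigen presentation; fetal genes; DNA methylation and Polycomb; and stem, myeloid, macrophage, mast, lymphoid, endothelial, hepatocyte and stellate markers. Members and lists were chosen with earlier results of these data known. Some listed genes, adult globins among them, were without a uniquely named probe set and were not used here. Promoters were searched in Python 3.11.15. Alternatives were a fit of all 12 arrays, a replicate block, leaving out each array or MEG arrays 1 and 3, 3 treatments of low values, 3 normalizations, means over probe sets, other variance estimates, array weights and other thresholds.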

Additional observations from a re-analysis of the deposited data

Results flagged for a closer look

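A level was taken to stand apart when, of the 4 arrays of a population, its gap to the nearest other array, as a share of the range, passed Dixon's critical value at 95%, which chance alone gives in about 1 in 20 groups. Of 628 groups tested, for the genes named and the medians of the 40 lists in each population, 44 did so (7.01%). Some genes were named for a large SD within a population or after their values were seen. The share therefore cannot be set against 1 in 20. No test was run on why. On ERY array 1, *Ak4* at 8.14 and *Rhag* at 12.40 were high against the other ERY arrays. On ERY array 1, *Dnmt3b* at 5.70, *Gnai2* at 11.06 and *Hba-x* at 11.47 were low against the other ERY arrays. On ERY array 2, *Ifitm3* at 8.05, *Psmb9* at 7.55, *Tspan33* at 11.99, *Vamp8* at 11.19 and *Vwf* at 7.88 were high against the other ERY arrays. On ERY array 2, *Btk* at 6.73 and *Pde7a* at 7.08 were low against the other ERY arrays. On ERY array 4, *Xk* at 11.24 was low against the other ERY arrays. On MEG array 1, *Itga6* at 12.36, *Itgb3* at 13.23, *Tet2* at 9.61, *Ulk1* at 10.12 and *Vps37a* at 10.68 were high against the other MEG arrays. On MEG array 1, *Ak4* at 6.57, *Pfkl* at 7.75, *Pfkp* at 8.17, *Pkm* at 10.49 and *Slc2a1* at 10.69 were low against the other MEG arrays. On MEG array 2, *Il7r* at 6.42 was low against the other MEG arrays. On MEG array 3, *Bcl11a* at 8.31, *Klf1* at 7.22, *Myh10* at 6.43, *Pde4b* at 7.09, *Pde7a* at 7.02 and *Tfr2* at 6.45 were high against the other MEG arrays. On MEG array 4, *Hspa1a* at 9.83 was high against the other MEG arrays. On MEG array 4, *Ap3b1* at 9.58, *Atg4b* at 7.16, *Il6st* at 9.05, *Klf7* at 9.91, *Ldb1* at 10.89, *Slc6a4* at 12.70 and *Ulk2* at 8.02 were low against the other MEG arrays. Of list medians, the shared erythro-megakaryocytic factors list in ERY array 2 at 10.50, the ERY-side factors list in ERY array 2 at 9.65 and the red cell surface and transport list in MEG array 3 at 8.08 stood apart, as did the red cell surface and transport list in ERY array 4 at 11.63, the macrophages list in MEG array 3 at 7.91 and the endothelial cells list in ERY array 2 at 6.83.

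*Ak4* was called only where MEG array 1 was left out or weighted down. *Hspa1a* read 7.30, 7.31, 7.34 and 9.83 on the MEG arrays and 8.70, 8.65, 10.71 and 10.80 on the ERY arrays; its difference was -1.77 (limma adjusted p = 0.093) over all 8 arrays, and without MEG array 4 it was -2.39, adjusted p = 0.012 (limma), past the threshold. *Pkm* and *Slc2a1* kept their calls without MEG replicate 1 (3.09, adjusted p = 1.8e-06 and -1.74, adjusted p = 4.0e-06, limma).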

How the results depend on the processing

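Under the 23 alternatives, 0 called genes changed direction. Leaving out each array in turn gave 1671 to 1941 genes higher and 1443 to 1715 lower, the most higher and the fewest lower without MEG replicate 4 (1941 and 1443), and 12582 to 13752 genes within 2-fold. All 12 arrays gave 1744 and 1549, quantile normalization 1824 and 1566, and raising low values to the background limit 1531 and 1370. Centring on genes above the limit gave 1554 and 1879, so the share of calls that were higher went from 53.0% to 45.3%, and array weights gave 2048 and 1421 (59.0%). The test against a 2-fold difference called 786 higher and 713 lower, and a threshold of 1.5-fold 2649 and 2538. With fewer genes tested, 6305 above the background limit and 5795 above the median of all probe sets lay within 2-fold. Of 264 called genes among the 397 followed by name, 235 kept their call under every alternative other than the test against 2-fold and an FDR of 1%. Of 1840 counts of list members, 66 moved by more than 1.5 times, 38 of them under the test against 2-fold or the 1.5-fold threshold; sterol genes higher went from 12 to 20 with array weights and interferon genes from 12 to 7 with low values raised. The median SD of MEG arrays lay between 0.269 and 0.359 with single MEG replicates left out, and that of ERY arrays between 0.118 and 0.164.

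The replicate number as a block gave 1795 higher and 1580 lower. Same-numbered arrays did not deviate together: their correlations were 0.03, -0.35, 0.12 and -0.21, 1 of 4 over 0.1, so the number was not taken as a pairing. Signal near the background limits small differences of the 7740 genes below it in both populations.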

Other observations

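Gene families were also read by the letters that open their symbols, a grouping made after the values were seen, over 236 families with 10 or more measured genes. Inositol phosphatases and phospholipid phosphatases (Inpp) had 6 of 10 genes higher in MEG and 0 lower, with *Inpp4b* at 4.29 and *Inpp5a* at 3.73. *Inpp4b* read 9.56, 9.86, 9.76 and 9.62 on the MEG arrays and 5.25, 5.75, 5.49 and 5.16 on the ERY arrays, without overlap. Of the Dock exchange factors, which activate Rac and Cdc42, 4 of 10 were higher and 0 lower, *Dock5* (3.18) and *Dock8* (2.99) first. Protein tyrosine phosphatases of the Ptpn group had 6 of 17 higher and 0 lower, and vacuolar sorting proteins (Vps) 11 of 35 higher and 0 lower, with *Vps37a* at 1.91. Beside these, 8.96% of all genes were higher and 7.94% lower.

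Families that went both ways were the tetraspanins, with 6 of 19 higher and 3 lower. *Tspan9*, known from platelets, read 10.94, 10.61, 10.48 and 10.13 on the MEG arrays and 7.16, 7.33, 6.86 and 7.02 on the ERY arrays (log2 difference 3.45, SE 0.18, limma adjusted p = 6.4e-07), and *Tspan33*, known from erythroblasts, read 6.39, 5.77, 6.05 and 5.30 on the MEG arrays and 11.73, 11.99, 11.69 and 11.72 on the ERY arrays (log2 difference -5.91, SE 0.21, limma adjusted p = 5.5e-08). The populations overlapped for neither. Of 24 Myo genes 7 were higher and 2 lower, with *Myo6* at 3.12 and *Myo1d* at -3.72. Of 17 Klf factors 4 were higher, led by *Klf7* (3.02), and 5 lower. Of 38 kinesins (Kif), 12 were lower and 4 higher; the 4 higher, *Kif13a*, *Kif21b*, *Kif5b* and *Kif16b* (1.85, 1.65, 1.45 and 1.05), include transport motors, while *Kif23* (-2.90) and *Kif4* (-2.70) work in mitosis. The call of *Kif16b* was lost without ERY replicate 2 or MEG replicate 3 (log2 difference 0.98, limma adjusted p = 0.0029 and log2 difference 0.95, limma adjusted p = 0.0014). Nucleoporins (Nup) had 6 of 20 lower and 0 higher, with *Nup210* at -2.86, and the membrane-bound ubiquitin ligases of the Marchf family 4 of 11 lower and 0 higher, with *Marchf3* at -4.08.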
